A study of Mus musculus with 18 samples.

Results

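The comparison set 3 mouse colon libraries labelled LAO1KO (genotype Lao1-/-) against 3 labelled WT (wild type), all from animals that drank 2.5% dextran sulfate sodium (DSS) for 24 h. These 6 libraries were chosen by the names of their columns in the count table, out of 18 libraries in the series. Every animal of the series was a male C57BL/6J mouse of 8 weeks, bred germ-free, that is without any microbes. Libraries used beside them were WT and LAO1KO on sterile water without DSS, and DKO (Lao1-/- with Il4i1-/-) on the same 2.5% DSS, each with 3 libraries that the design text calls biological replicates. How the Lao1 allele was made, which exons it lacks and whether the mutant mice were littermates of the WT mice are not given in the sources used here. The names WT, LAO1KO and DKO below are those of the labels.

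Lao1 encodes an L-amino acid oxidase, an enzyme that turns amino acids into keto acids and releases ammonia and hydrogen peroxide. Its best known site in the mouse is milk, where the peroxide acts against bacteria, and its relative Il4i1 is made mainly by antigen-presenting cells. DSS is a sulfated sugar polymer that injures the epithelium lining the colon, and colitis usually takes several days to develop, so that 24 h is an early time. The comparison asks which transcripts of the whole colon differed between the genotypes at this time.

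The 6 libraries held 26.003 to 34.4 M counts each, and 18848 of 45777 genes passed the filter on low counts. The 13 mRNAs made inside mitochondria took 26.9, 26.1 and 44.9% of all counts in WT replicates A, B and C and 18.7, 23.2 and 15.7% in LAO1KO replicates A, B and C (32.7 ± 10.6 against 19.2 ± 3.76%, SD, n = 3; exact permutation p = 0.1, 2-sided, the smallest that 3 against 3 allows). WT replicate C lay far above the other 5. Levels below are CPM, read counts scaled to the library's size and composition by the TMM method, and every adjusted p is from edgeR's quasi-likelihood test with Benjamini-Hochberg adjustment over all tested genes, with a threshold of 0.05. In bulk tissue, fewer cells of a type and less RNA per cell cannot be told apart. The intestinal regulator Cdx2 was present in all 6 libraries, at 206 to 303 CPM.

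The targeted gene itself was close to absent in this tissue. Lao1 had 0, 4 and 0 counts in the WT libraries and 9, 10 and 2 in the LAO1KO libraries, against a limit of 3 counts that a count of 0 still allows. The levels were 0.0492 ± 0.0851 CPM in WT and 0.233 ± 0.143 CPM in LAO1KO (SD, n = 3; exact permutation p = 0.2, 2-sided), and the ranges overlapped. Lao1 reads were thus no fewer under the knockout label, and these counts did not check that label. Il4i1 together with the separate entry Il4i1b had 42, 25 and 50 counts in WT and 66, 47 and 12 in LAO1KO. Their summed levels of 1.82 ± 1.02 and 1.35 ± 0.75 CPM overlapped (exact permutation p = 0.6, 2-sided). The Il4i1 entry alone had a log2 fold change of 1.47 ± 1.89 (SE; edgeR adjusted p = 0.919).

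Under DSS 16 of 18848 genes (0.0849%) passed the threshold, 4 higher in LAO1KO (0.0212%) and 12 lower (0.0637%). In all 16 the highest library of one genotype lay below the lowest of the other, which was so for 11.8% of all tested genes (5.32% with LAO1KO higher and 6.45% with LAO1KO lower). Only 5 of them were protein-coding, out of 15319 tested (0.0326%). These were the proprotein convertase Pcsk5 and the inositol trisphosphate kinase Itpkb, which were higher, and the complex I subunit Ndufs5, the rhomboid protease Rhbdl2 and the chromatin protein Mier3, which were lower. A further 10 were pseudogenes, out of 942 tested (1.06%): Ndufs5-ps, a copy of Ndufs5 that was higher, and 9 copies of the ribosomal protein gene Rps2 that were lower. The last was Gm29891, a long noncoding RNA on the chromosome of Lao1, which was higher. At an unadjusted p under 0.05 there were 1135 genes (6.02%), 597 higher (3.17%) and 538 lower (2.85%). DESeq2 called 51 genes (0.238%), 26 higher and 25 lower, and limma voom with library weights called 967 (5.13%), 307 higher and 660 lower; both sets held all 16. Without LAO1KO replicate A 9 genes passed and without LAO1KO replicate B 10 passed, against 12 to 16 without any other single library.

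**Figure D1:**
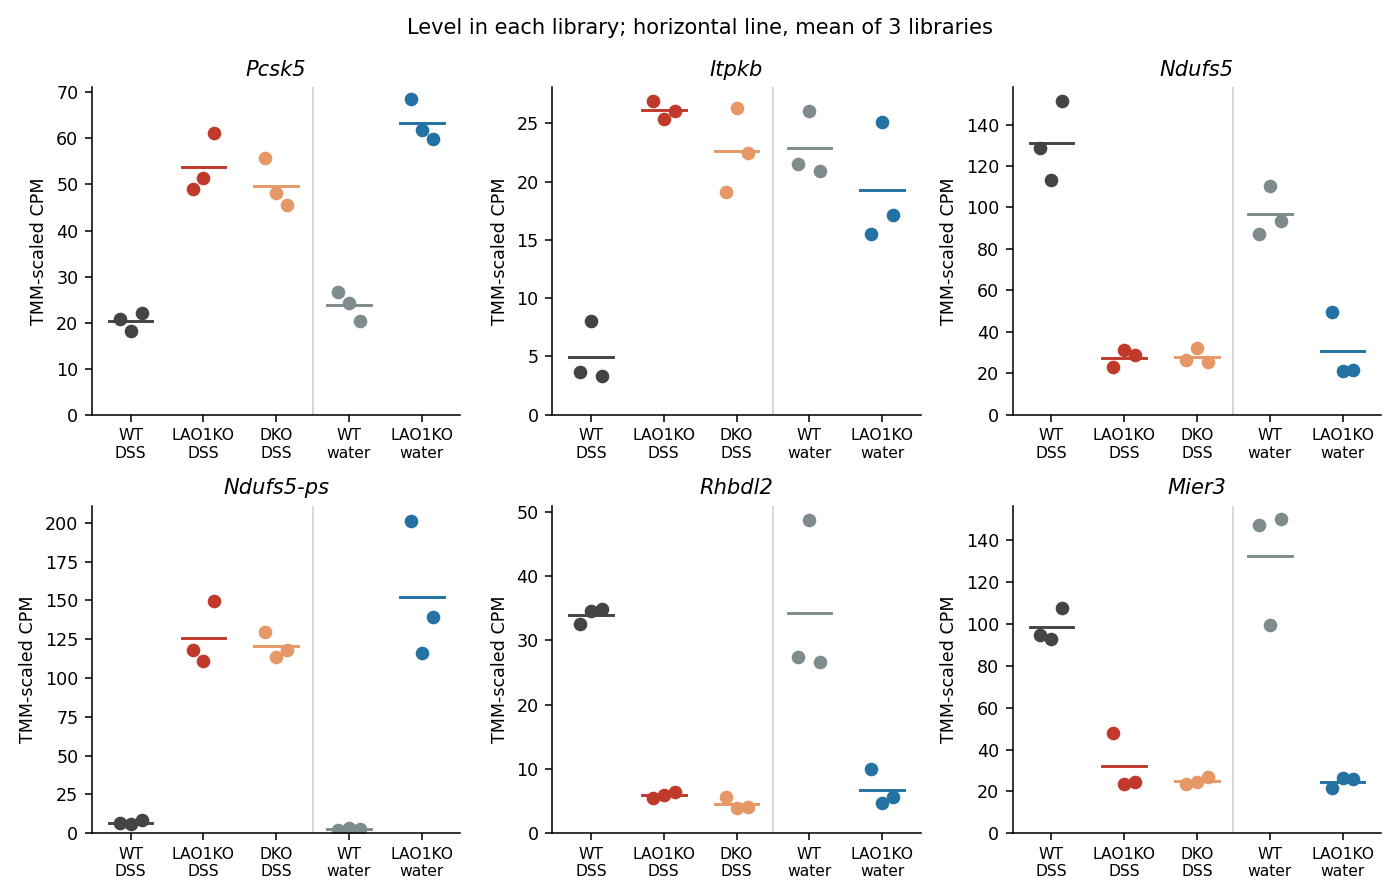
Level in TMM-scaled CPM (vertical axis, from 0) of the 6 named genes past the threshold, in 5 groups of 3 libraries (horizontal axis). Each dot is 1 library and each line the mean of 3. LAO1KO and DKO on DSS lie together and apart from WT on DSS for all 6 genes, and the WT and LAO1KO libraries on water show the same separation for 5 of them, Itpkb being the exception.

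Ndufs5 and Ndufs5-ps moved in opposite directions. Ndufs5 encodes an accessory subunit of mitochondrial complex I, the first enzyme of the respiratory chain, and lies on chromosome 4 at 123712710 to 123718186 (GRCm38.p6). Ndufs5-ps is annotated as a pseudogene on chromosome 16 at 42955580 to 42956079, within the span of the transcription factor gene Zbtb20, whose own log2 fold change was -0.04. The coding stretches of the pair are 99.4% identical in GENCODE M21, with 2 mismatches. They are shown because short reads from the pair are hard to tell apart. The first 300 coding bases follow, 5′ to 3′, with capitals in the copy at each base that differs from Ndufs5 (T81C and A105G, counted from the A of the start codon, the base of Ndufs5 first).
Ndufs5: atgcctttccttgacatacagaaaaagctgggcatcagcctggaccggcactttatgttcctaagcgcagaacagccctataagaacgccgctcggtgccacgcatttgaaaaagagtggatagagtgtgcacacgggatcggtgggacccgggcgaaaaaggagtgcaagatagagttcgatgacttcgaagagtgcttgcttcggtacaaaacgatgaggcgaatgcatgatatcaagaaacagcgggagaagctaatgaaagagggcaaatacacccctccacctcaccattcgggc
Ndufs5-ps: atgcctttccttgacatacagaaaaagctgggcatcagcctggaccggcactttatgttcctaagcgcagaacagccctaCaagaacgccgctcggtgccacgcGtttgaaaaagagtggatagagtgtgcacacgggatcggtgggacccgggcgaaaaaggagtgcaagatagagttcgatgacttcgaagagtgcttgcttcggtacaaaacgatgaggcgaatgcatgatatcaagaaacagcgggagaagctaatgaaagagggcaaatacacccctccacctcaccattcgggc

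Ndufs5 stood at 129, 113 and 151 CPM in the WT libraries and at 22.9, 31.1 and 28.7 CPM in the LAO1KO libraries. Every LAO1KO library was thus far below every WT library, by 4.76-fold in the fit (log2 fold change -2.25 ± 0.29, SE; edgeR adjusted p = 0.00301). Ndufs5-ps stood at 6.56, 5.71 and 8.28 CPM in WT and at 118, 111 and 149 CPM in LAO1KO. That was 18.5-fold higher (4.21 ± 0.22; edgeR adjusted p = 7.75e-09) and the smallest p of the comparison.

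Under DSS the sum of the pair overlapped between the genotypes. Ndufs5 and Ndufs5-ps together came to 138 ± 20.6 CPM in WT and 154 ± 21.3 CPM in LAO1KO (SD, n = 3). What differed was the division: Ndufs5-ps held 4.95 ± 0.207% of the summed level in WT and 81.9 ± 3.32% in LAO1KO. Under water it held 2.62 ± 0.191% in WT and 83.8 ± 3.23% in LAO1KO, and in DKO under DSS 78.0 to 83.0%. Under water the sum was higher in LAO1KO, at 251, 137 and 161 CPM in replicates A, B and C against 89.5, 113 and 95.9 CPM in WT. How reads that match more than 1 place were counted is not given in the sources used here, so the level of each copy by itself is uncertain.

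**Figure D2:**
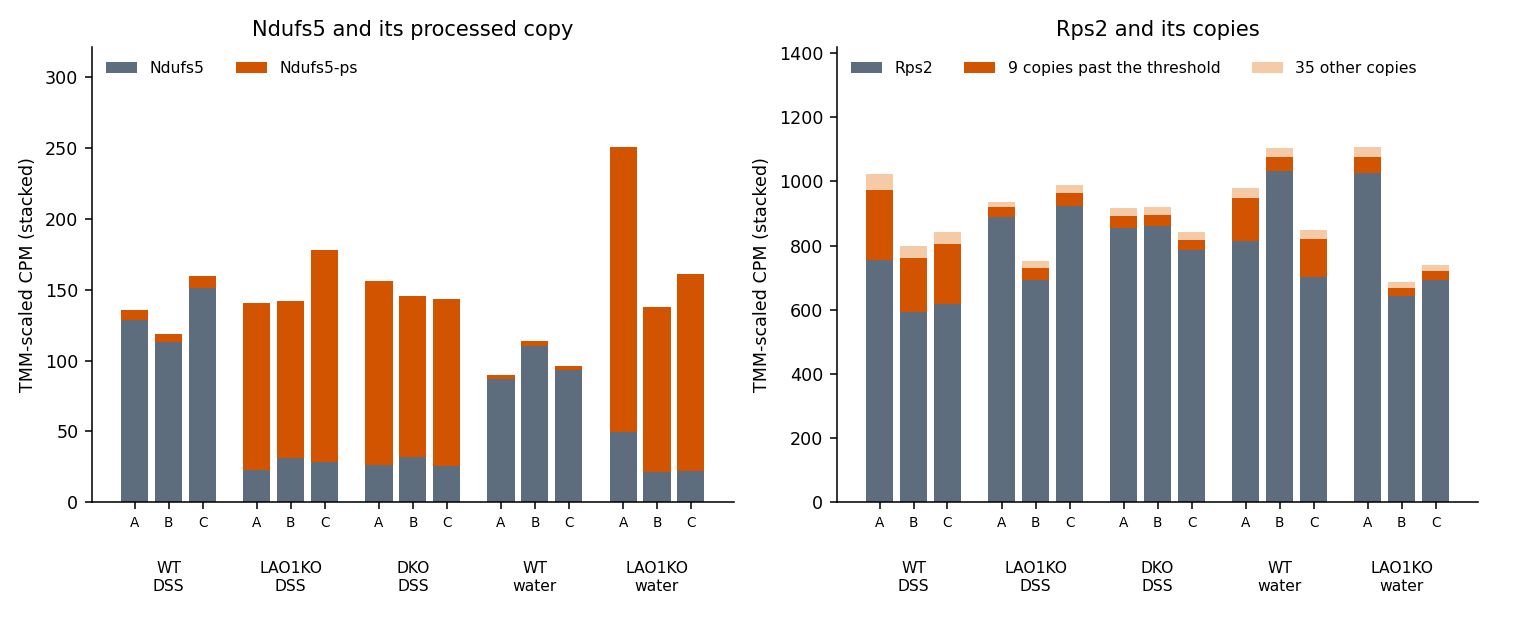
Stacked levels in TMM-scaled CPM (vertical axes, from 0) in each library (A, B and C of 5 groups). On the left the Ndufs5-ps share is small in all WT libraries and makes up most of the bar in all LAO1KO and DKO libraries; on the right the 9 Rps2 copies past the threshold are wide bands in the 3 WT libraries on DSS and in WT replicates A and C on water, and narrow bands in the others.

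Other nuclear subunits of complex I differed far less than Ndufs5. Of 37 tested subunits, Ndufs5 included, 36 had a log2 fold change below 0, with a median of -0.24. Over all tested genes 51.7% were below 0, with a median of -0.01. In 9 of the 37 the genotypes did not overlap and LAO1KO was lower, as in 6.45% of all tested genes. Ndufs5 was the only member past the threshold. Next were Ndufa1 (-0.46; edgeR adjusted p = 0.805), Ndufa5 (-0.45; 0.823), Ndufs6 (-0.41; 0.823) and Ndufa6 (-0.40; 0.823). Their summed level, Ndufs5 included, was 5464 to 6448 CPM in WT and 4582 to 5725 CPM in LAO1KO. Under water the median of the list was 0.22.

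The mitochondrially encoded mRNAs, which include 7 further complex I subunits, were also at lower levels in LAO1KO libraries on DSS without passing the test. All 13 had a log2 fold change below 0, from -1.52 (ND4L) to -0.81 (ND3), and 12 did not overlap between the genotypes, where 6.45% of all tested genes did so in this direction. The smallest edgeR adjusted p was 0.609, for COX2 and ND4. COX2, a catalytic subunit of cytochrome oxidase, stood at 23430, 21700 and 52045 CPM in WT and at 14100, 18207 and 13571 CPM in LAO1KO. Summed over these mRNAs, WT replicate C was more than double the other WT libraries, and without it the median of the list went from -1.21 to -0.58. Under water the median was 0.65, in the other direction. When the mitochondrial mRNAs were removed from the counts before the fit 17 genes passed, the 16 among them.

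Rhbdl2, a rhomboid protease that cuts proteins within the cell membrane, among them EGF and thrombomodulin in cultured cells, was lower in LAO1KO. It lies on chromosome 4 at 123787875 to 123830196, 69.7 kb from the end of Ndufs5. WT libraries held 32.5, 34.5 and 34.9 CPM and LAO1KO libraries 5.42, 6.02 and 6.46 CPM. The libraries of each genotype were close to one another and the genotypes far apart, 5.70-fold in the fit (-2.51 ± 0.27; edgeR adjusted p = 2.04e-04).

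No other rhomboid or EGF receptor gene passed. Of 21 tested members of this list 11 had a log2 fold change above 0 and 10 below, with a median of 0.02. The receptor Egfr was at -0.06, the sheddase Adam17 at -0.01 and the ligands Areg and Egf at -0.38 and 0.66. Its paralog Rhbdl3 had the next smallest p, with 5.10, 3.43 and 3.53 CPM in WT and 6.15, 7.59 and 5.52 CPM in LAO1KO (0.67 ± 0.26; edgeR adjusted p = 0.804). Its ranges did not overlap, in the direction opposite to Rhbdl2.

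Pcsk5 was the protein-coding gene with the smallest p. It encodes a proprotein convertase, an endoprotease that cuts precursors of growth factors and hormones at basic residues, and is known in the embryo for activating a growth factor of the TGF-beta family. The gene lies on chromosome 19 at 17432314 to 17837712. It stood at 20.8, 18.2 and 22.03 CPM in WT and at 49.0, 51.3 and 61.2 CPM in LAO1KO. The lowest LAO1KO library was more than double the highest WT library, and the fitted difference was 2.65-fold (1.41 ± 0.14; edgeR adjusted p = 6.83e-05).

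Of the 9 convertases tested 8 had a log2 fold change above 0, with a median of 0.13, and Pcsk5 alone passed. Furin, the ubiquitous convertase, stood at 38.7, 38.8 and 50.3 CPM in WT and at 50.4, 47.9 and 48.0 CPM in LAO1KO (0.20 ± 0.13; edgeR adjusted p = 0.828). Those ranges overlapped. Pcsk4 and Pcsk6 were at 0.27 and 0.30, and Mbtps1, the protease that activates the sterol-sensing SREBP factors, at 0.09.

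Itpkb, a kinase that phosphorylates inositol trisphosphate, the messenger that releases calcium from stores, was the one gene of the 16 with no difference of the same sign under water. It lies on chromosome 1 at 180330390 to 180424802. WT libraries on DSS held 3.65, 8.04 and 3.29 CPM and LAO1KO libraries 26.9, 25.4 and 26.1 CPM. All 3 LAO1KO libraries were within a narrow range, several times above the highest WT library (5.18-fold in the fit; 2.37 ± 0.28; edgeR adjusted p = 9.24e-04). Under water WT libraries held 21.5, 26.1 and 20.9 CPM and LAO1KO libraries 15.5, 25.1 and 17.1 CPM, and the ranges overlapped (-0.25; edgeR adjusted p = 0.702).

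It was thus the WT group on DSS that stood apart. Between water and DSS the level of Itpkb fell by 2.18 on the log2 scale in WT (edgeR adjusted p = 6.38e-04), and in LAO1KO the difference was 0.44 (0.429). The difference between these responses was 2.62 ± 0.38 with an edgeR adjusted p of 0.0561, which missed the threshold. It was 0.0642 with RLE scaling, 0.0689 with a mean above 1 CPM and 0.0819 without the mitochondrial mRNAs. It passed with no filter on low counts (0.0474), with the replicate letter as a block (0.00244), with DESeq2 (2.22e-07) and with limma voom (0.00130). With 1 library left out in turn this adjusted p ranged from 5.89e-04 to 0.279, and it was under the threshold in 3 of 12 such fits, those without WT DSS replicate B, WT water replicate C or LAO1KO water replicate B. DKO libraries on DSS held 19.1, 26.3 and 22.4 CPM, near the LAO1KO values. Gm5069, a pseudogene that overlaps Itpkb on the other strand, was at -0.33 (edgeR adjusted p = 0.893).

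Mier3, of a protein family that recruits histone deacetylases to repress transcription, was lower in LAO1KO. It lies on chromosome 13 at 111686073 to 111718596. WT libraries held 94.9, 92.9 and 108 CPM and LAO1KO libraries 47.8, 23.6 and 24.4 CPM. LAO1KO replicate A was at about double the other LAO1KO libraries and still well below WT, and the fitted difference was 3.08-fold (-1.62 ± 0.22; edgeR adjusted p = 0.00301). In a fit to the 6 DSS libraries alone Mier3 did not pass (-1.60; edgeR adjusted p = 0.178), and in the other alternatives it did.

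The other members of the MIER and histone deacetylase list did not pass. Of 17 tested 13 had a log2 fold change above 0, with a median of 0.12, so that Mier3 ran against most of its list. Its paralog Mier2 stood at 17.0, 15.96 and 15.4 CPM in WT and at 21.9, 23.3 and 18.1 CPM in LAO1KO (0.39 ± 0.12; edgeR adjusted p = 0.679), with no overlap. Mier1 was at -0.16, and the deacetylases Hdac1, Hdac2 and Hdac3 were at 0.24, 0.03 and -0.12.

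Of the genes past the threshold 3 lay within 5 Mb of Lao1 on chromosome 4. Gm29891 starts 1.70 Mb from Lao1, Ndufs5 4.75 Mb and Rhbdl2 4.83 Mb, all on the same side. That was 3 of 145 tested genes within 5 Mb (2.07%), against 0.0849% over the whole table, and no further gene passed out to 10 Mb, where 221 were tested (1.36%). Within 1 Mb 0 of 31 tested genes passed edgeR's threshold, with 4 at an unadjusted p under 0.05 (6.02% of all genes). Gm29891 had 14, 5 and 2 counts in WT and 98, 130 and 34 in LAO1KO, or 0.54, 0.18 and 0.12 against 2.74, 4.77 and 1.39 CPM. The groups did not overlap, but the WT level rests on few counts (3.33 ± 0.52; edgeR adjusted p = 0.00952). Without WT replicate B or C or LAO1KO replicate B its adjusted p was 0.0571 to 0.1003, and in the fit to the 6 DSS libraries alone it was 0.178. In this design the effect of the Lao1 allele and that of other differences on its chromosome that may have come with it cannot be told apart.

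**Figure D3:**
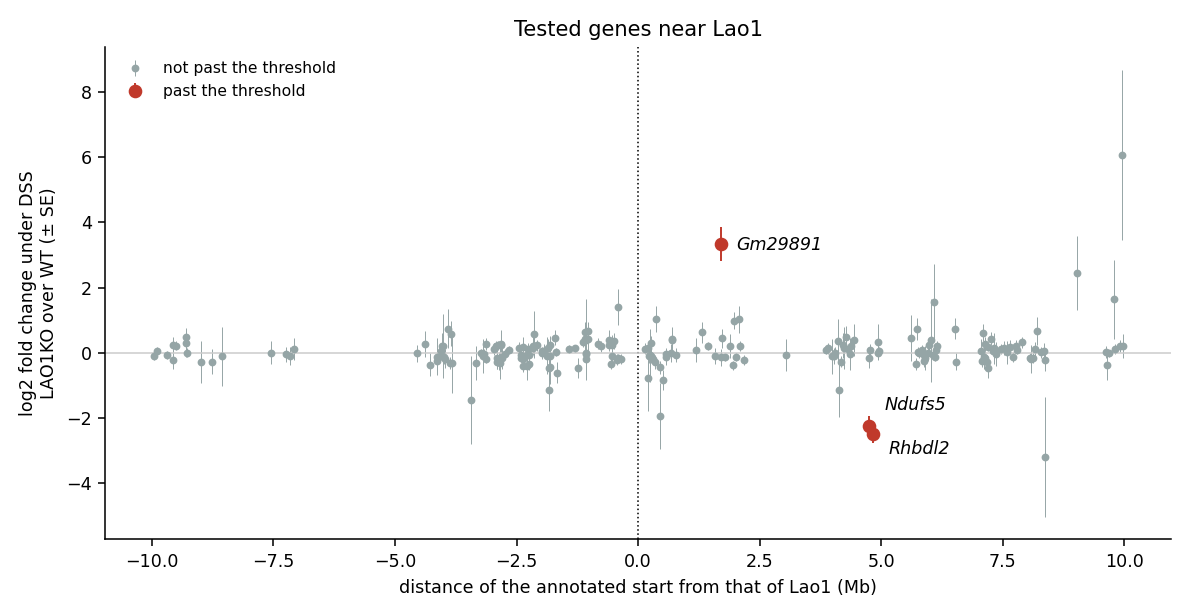
Log2 fold change under DSS, LAO1KO over WT, with its SE (vertical axis) of the 221 tested genes whose annotated start lies within 10 Mb of that of Lao1 (horizontal axis, Mb; the dotted line is Lao1). The 3 genes past the threshold lie at 1.70, 4.75 and 4.83 Mb on one side, and most of the others lie near 0 or have wide errors. Some lie apart from 0 on either side of Lao1 without passing. Examples, chosen after their values were seen, are Cfap57 at -0.41 Mb (1.40 ± 0.56), Rimkla at 0.50 Mb (-0.84 ± 0.31) and Zfp69 at 1.97 Mb (0.99 ± 0.27).

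The 9 pseudogenes left are all copies of Rps2, which encodes a protein of the small ribosomal subunit. They were singled out after their values were seen. Processed copies of ribosomal protein genes are scattered over the genome because their mRNAs were reverse transcribed and inserted, and most carry few differences from the parent. A search of GENCODE M21 with the coding sequence of Rps2 found 47 copies at 90% identity or more over at least 80% of its length. Of these 44 were in the table and 21 were tested. The first 150 coding bases of Rps2 and of 4 copies past the threshold are shown, 5′ to 3′, to let the closeness of the copies be seen, with capitals at each base that differs from Rps2 (T60A is shared by all 4 copies).
Rps2: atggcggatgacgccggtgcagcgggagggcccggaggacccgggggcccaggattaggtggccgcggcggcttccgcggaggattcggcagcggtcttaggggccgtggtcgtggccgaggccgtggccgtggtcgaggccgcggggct
Rps2-ps13: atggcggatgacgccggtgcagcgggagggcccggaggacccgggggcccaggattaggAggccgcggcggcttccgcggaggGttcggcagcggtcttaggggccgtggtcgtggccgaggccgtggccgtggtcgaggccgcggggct
Rps2-ps8: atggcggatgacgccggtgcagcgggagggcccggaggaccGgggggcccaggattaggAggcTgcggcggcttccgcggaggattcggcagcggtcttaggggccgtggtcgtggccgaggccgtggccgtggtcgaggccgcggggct
Gm6311: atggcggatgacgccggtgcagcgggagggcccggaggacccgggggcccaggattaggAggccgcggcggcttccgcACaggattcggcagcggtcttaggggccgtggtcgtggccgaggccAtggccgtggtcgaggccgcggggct
Gm12366: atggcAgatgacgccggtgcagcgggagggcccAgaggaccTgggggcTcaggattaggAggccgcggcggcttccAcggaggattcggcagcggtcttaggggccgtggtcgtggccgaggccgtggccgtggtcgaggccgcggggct

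All 21 tested copies had a log2 fold change below 0 in LAO1KO, with a median of -1.82, and 9 passed, each lower. These 9 lie on 9 chromosomes and are 96.5 to 99.4% identical to Rps2, and the 12 that did not pass are 91.0 to 98.9% identical. Their log2 fold changes ran from -4.18 to -1.76, with edgeR adjusted p from 0.00301 to 0.0154. Rps2-ps8 on chromosome 17, the most reduced, stood at 18.2, 13.4 and 15.7 CPM in WT and at 0.727, 0.954 and 0.940 CPM in LAO1KO. Rps2-ps13 on chromosome X, the one with the smallest p, stood at 38.2, 29.6 and 33.0 CPM in WT and at 6.60, 7.30 and 8.499 CPM in LAO1KO. The others past the threshold were Rps2-ps10, Gm6311, Gm12366, Gm6139, Gm6576, Rps2-ps6 and Gm7432. Near-identical copies may share reads, so the 21 values and the 9 calls are not taken as independent of one another. For 1 pair, Gm6139 stood at 30.6, 24.2 and 26.9 CPM in WT and Gm6311 at 29.6, 23.2 and 25.9 CPM.

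Summed over the 9 copies, WT libraries held 220, 169 and 188 CPM and LAO1KO libraries 29.2, 36.3 and 38.4 CPM. Rps2 itself was at 654.7 ± 87.0 CPM in WT and 836 ± 125 CPM in LAO1KO (0.35; edgeR adjusted p = 0.823), with overlapping ranges. Rps2 with all its copies came to 888 ± 119 and 893 ± 124 CPM (SD, n = 3). As with Ndufs5 on DSS, the division between near-identical sequences differed and the sum did not differ beyond the spread between libraries. On water the Ndufs5 sum was higher in LAO1KO, as given above. DKO libraries on DSS were like LAO1KO, at 38.3, 36.0 and 31.6 CPM over the 9 copies.

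On water the pattern of the copies was less clear. The sum over the 9 copies was 133, 42.9 and 119 CPM in WT replicates A, B and C and 48.5, 26.8 and 28.4 CPM in LAO1KO. WT replicate B lay at the level of the LAO1KO libraries, below the highest of them. For the 9 copies the water log2 fold changes ran from -3.11 to -1.10, and none passed edgeR's test there (adjusted p 0.0930 to 0.208; 9 of 9 at an unadjusted p under 0.05). Of the 9, only Rps2-ps13 and Rps2-ps10 stayed past the threshold under DSS whichever of the 6 libraries was left out.

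The water libraries gave the same comparison in animals that DSS had not touched. There 10 genes passed (0.0531%), and 5 of them, Ndufs5-ps, Pcsk5, Rhbdl2, Mier3 and Gm29891, were among the 16 and had the same sign. Of the 16, 15 had the same sign under water with an unadjusted p under 0.05, where 14.3% of all genes reached that p with either sign. The 15 include the 9 Rps2 copies, which may share reads and are not taken as independent. Pcsk5 stood at 26.7, 24.2 and 20.4 CPM in WT on water and at 68.6, 61.8 and 60.0 CPM in LAO1KO, a difference of 1.419 on the log2 scale (edgeR adjusted p = 3.40e-05). The difference between the conditions was -0.01. Rhbdl2 differed by -2.34 (3.50e-04), Mier3 by -2.42 (3.40e-05), Ndufs5-ps by 5.86 (1.16e-10) and Gm29891 by 3.58 (0.00515). Ndufs5 was at -1.65, with an adjusted p of 0.05001 that lay just above the threshold.

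No gene passed the edgeR test of whether the genotype difference itself differed between DSS and water, with 3005 genes (15.9%) at an unadjusted p under 0.05. DESeq2 called 448 genes in that test and limma voom 2324. The genotypes did not overlap under either condition and lay in opposite order for 402 genes (2.13%), and for 0 of the 16. With so small a share over all genes, nothing is read from the count of 0. For Mier3 the difference between DSS and water was 0.80 ± 0.31 (edgeR adjusted p = 0.221) and for Ndufs5-ps -1.65 ± 0.29 (0.126). WT levels of Ndufs5-ps on water were 2.23, 3.22 and 2.42 CPM, all below those on DSS.

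**Figure D4:**
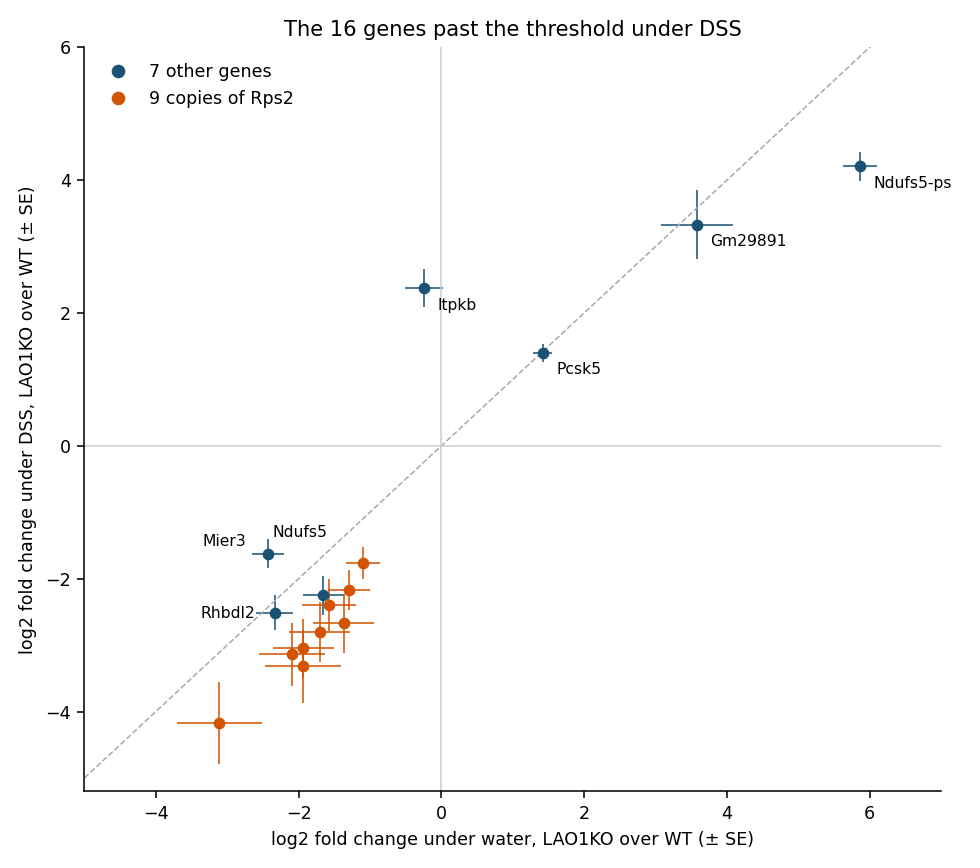
Log2 fold change of LAO1KO over WT under water (horizontal axis) and under DSS (vertical axis) for the 16 genes past the threshold under DSS, each with its SE; the dashed line marks equal values. Of the 16, 15 lie in the same direction on both axes, and Itpkb lies at -0.25 on water and 2.37 on DSS.

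The DKO libraries on DSS carry the Lao1 genotype as well, and their comparison with WT shares the 3 WT libraries used here. That comparison passed 48 genes (0.255%), and its values are set here beside those of LAO1KO only as levels against the same WT libraries. Log2 differences for LAO1KO and DKO from WT were 1.41 and 1.29 for Pcsk5, -2.51 and -2.91 for Rhbdl2, 2.37 and 2.16 for Itpkb, -2.25 and -2.23 for Ndufs5 and -1.62 and -1.98 for Mier3. Between DKO and LAO1KO on DSS, 12 genes passed (0.0637%). By edgeR 0 of the 16 genes did so, which is near the share of all genes, and nothing is read from this count. The smallest edgeR unadjusted p among the 16 was 0.120, for Mier3 (-0.36 ± 0.22).

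Among the 45 gene lists for colon cell types, peroxide and amino acid metabolism, stress and immunity, 742 of 786 genes were tested and 4 passed, where 0.0849% of all genes did: Ndufs5, Pcsk5, Rhbdl2 and Mier3. The lists that hold these genes were drawn up with their differences known, so nothing is read from this count. The other 41 lists had no member past the threshold. The values that follow describe levels that did not pass.

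No gene of the oxidase pathway passed. Of 15 tested amino acid and amine oxidases 10 had a log2 fold change above 0, with a median of 0.08. Maoa, the mitochondrial monoamine oxidase, had the smallest p of them, at 1134, 854 and 1502 CPM in WT and 737, 769 and 1019 CPM in LAO1KO (-0.47; edgeR adjusted p = 0.804). Of 21 enzymes that remove peroxide or superoxide 16 were below 0, with a median of -0.10, Sod1 at -0.33 and Prdx5 at -0.27. The median was -0.03 for 13 NADPH and dual oxidases and -0.03 for 21 Nrf2 targets, 0.02 for 20 ATF4 targets of the amino acid response, and 0.06 for 19 amino acid transporters. Slc43a1, an uptake transporter for large neutral amino acids, had the smallest adjusted p of these lists (1.08 ± 0.33; edgeR adjusted p = 0.637), with 2.26, 2.36 and 1.59 CPM in WT and 6.404, 2.16 and 4.58 CPM in LAO1KO, and its ranges overlapped.

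All 24 tested type I interferon-stimulated genes had a log2 fold change below 0, with a median of -0.59, and 9 of them did not overlap between the genotypes, where 6.45% of all tested genes did so in this direction. None passed edgeR's threshold, 2 had an unadjusted p under 0.05 (2.85% of all genes in this direction), and the smallest adjusted p was 0.809. Irf7, the factor that amplifies interferon production, stood at 185, 227 and 227 CPM in WT and at 131, 114 and 166 CPM in LAO1KO (-0.63). Ifit1, an antiviral RNA-binding protein, stood at 28.4, 53.3 and 51.3 CPM in WT and at 22.4, 12.99 and 27.1 CPM in LAO1KO (-1.09). The summed level of the list was 667 to 883 CPM in WT and 422 to 640 CPM in LAO1KO, and under water its median was -0.82. Without WT replicate B the median under DSS was -0.34.

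The other immune lists had medians on either side of 0. The median was 0.29 for 11 B and plasma cell genes, 9 of them above 0, and 0.21 for 15 genes of antimicrobial and epithelial defence, 9 of them above 0. Each list held 1 gene at an edgeR unadjusted p under 0.05, Jchain and Saa3, and both were lower in LAO1KO. In this direction 2.85% of all genes reached that p. Log2 fold changes ran from -2.44 to 0.85 in the B and plasma cell list and from -1.77 to 0.87 in the defence list. The tested B and plasma cell genes summed to 34.3, 24.6 and 19.7 CPM in WT and 23.7, 54.3 and 2.62 CPM in LAO1KO. Their median ran from -0.77 to 0.88 over the alternatives. MHC class II genes had a median of -0.35, 8 of 9 below 0, and 26 genes of MHC class I and the interferon gamma response one of -0.14. B2m, the light chain of MHC class I, stood at 922, 941 and 996 CPM in WT and at 631, 677 and 770 CPM in LAO1KO (-0.46; edgeR adjusted p = 0.711), with no overlap. The medians of 13 T and natural killer cell genes and 16 macrophage, dendritic cell and neutrophil genes were -0.33 and -0.20. These tested genes summed to 14.5 to 20.2 and 133 to 153 CPM in WT and 11.6 to 12.6 and 114 to 143 CPM in LAO1KO. Cd8b1, S100a9 and Cxcr2 had 0 counts in all 6 libraries. Of 31 cytokines and chemokines 20 were tested, with a median of 0.09, and Il6, Il17a, Il22 and Csf3 had 0 counts in all 6 libraries.

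No gene of the epithelial lists passed. Absorptive colonocyte genes had a median of -0.26, with 17 of 21 below 0. Cyp2c55, a colonic cytochrome P450, stood at 653, 544 and 811 CPM in WT and at 377, 374 and 524 CPM in LAO1KO (-0.66; edgeR adjusted p = 0.481), with no overlap. Goblet cell genes had a median of 0.18, with 14 of 19 above 0. Their summed level was 11550 to 15742 CPM in WT and 10815 to 15965 CPM in LAO1KO, and the ranges overlapped. Muc2, the gel-forming mucin of colonic mucus, stood at 3518, 3391 and 1809 CPM in WT and at 4481, 3418 and 4306 CPM in LAO1KO (0.49; edgeR adjusted p = 0.823). St3gal4, a sialyltransferase on the goblet list, ran the other way, at 454, 364 and 399 CPM in WT and 177, 227 and 252 CPM in LAO1KO (-0.89; edgeR adjusted p = 0.687). So did the goblet markers Tff3 (-0.40) and Zg16 (-0.35), while Fcgbp and Clca1 were at 0.07 and 0.15. Among 20 junction genes the claudin Cldn8 came closest to the threshold, at 10.7, 12.0 and 7.46 CPM in WT and 26.6, 14.5 and 21.9 CPM in LAO1KO (1.05 ± 0.20; edgeR adjusted p = 0.0650).

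Adipocyte genes formed the list with the largest median, 2.39, and 10 of 11 were above 0. None passed edgeR's threshold, and 4 had an unadjusted p under 0.05, all of them higher, where 3.17% of all genes did so in this direction. The summed level of the 11 tested genes was 129, 306 and 535 CPM in WT replicates A, B and C and 2623, 272 and 2205 CPM in LAO1KO replicates A, B and C. LAO1KO replicates A and C were thus high and replicate B lay within the WT range. Of its defining markers Plin1, the coat protein of fat droplets, was at 0, 0.627 and 0.529 CPM in WT and at 15.4, 1.39 and 9.52 CPM in LAO1KO. No member of the list was at 0 in all 6 libraries.

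For enzymes of fatty acid synthesis, too, LAO1KO replicates A and C were the high ones. Fasn, fatty acid synthase, stood at 90.8, 109 and 60.6 CPM in WT and at 342, 93.7 and 290 CPM in LAO1KO (1.48 ± 0.42; edgeR adjusted p = 0.611). Acaca (0.98; 0.459) and Acly (0.72; 0.565), which feed its pathway, did not pass either, and LAO1KO replicate B lay within the WT range for all 3. The part of the adipocyte-rich libraries in these values was not tested. Across the 21 genes of cholesterol and fatty acid synthesis the median was 0.03, and the sterol genes Sqle and Hmgcs1 were at -0.11 and -0.07.

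Smooth muscle genes had a median of 0.25 (14 of 15 above 0; summed 5934 to 11349 CPM in WT and 8637 to 11000 in LAO1KO), and enteric neuron and glia genes one of -0.06. Red cell genes had a median of 0.81, with summed levels of 103 to 410 CPM in WT and 106 to 592 CPM in LAO1KO. In the circadian clock list, where 13 of 19 were below 0, the repressor Nfil3 stood at 2.95, 3.02 and 2.64 CPM in WT and at 5.90, 4.59 and 4.74 CPM in LAO1KO (0.82 ± 0.18; edgeR adjusted p = 0.196), with no overlap. The core activator Arntl was at 0.56 (0.687) and Nr1d2 at -0.57 (0.809). Cell cycle, unfolded protein response, heat shock, NF-kappa-B feedback and stem cell lists had medians between -0.10 and 0.05.

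**Figure D5:**
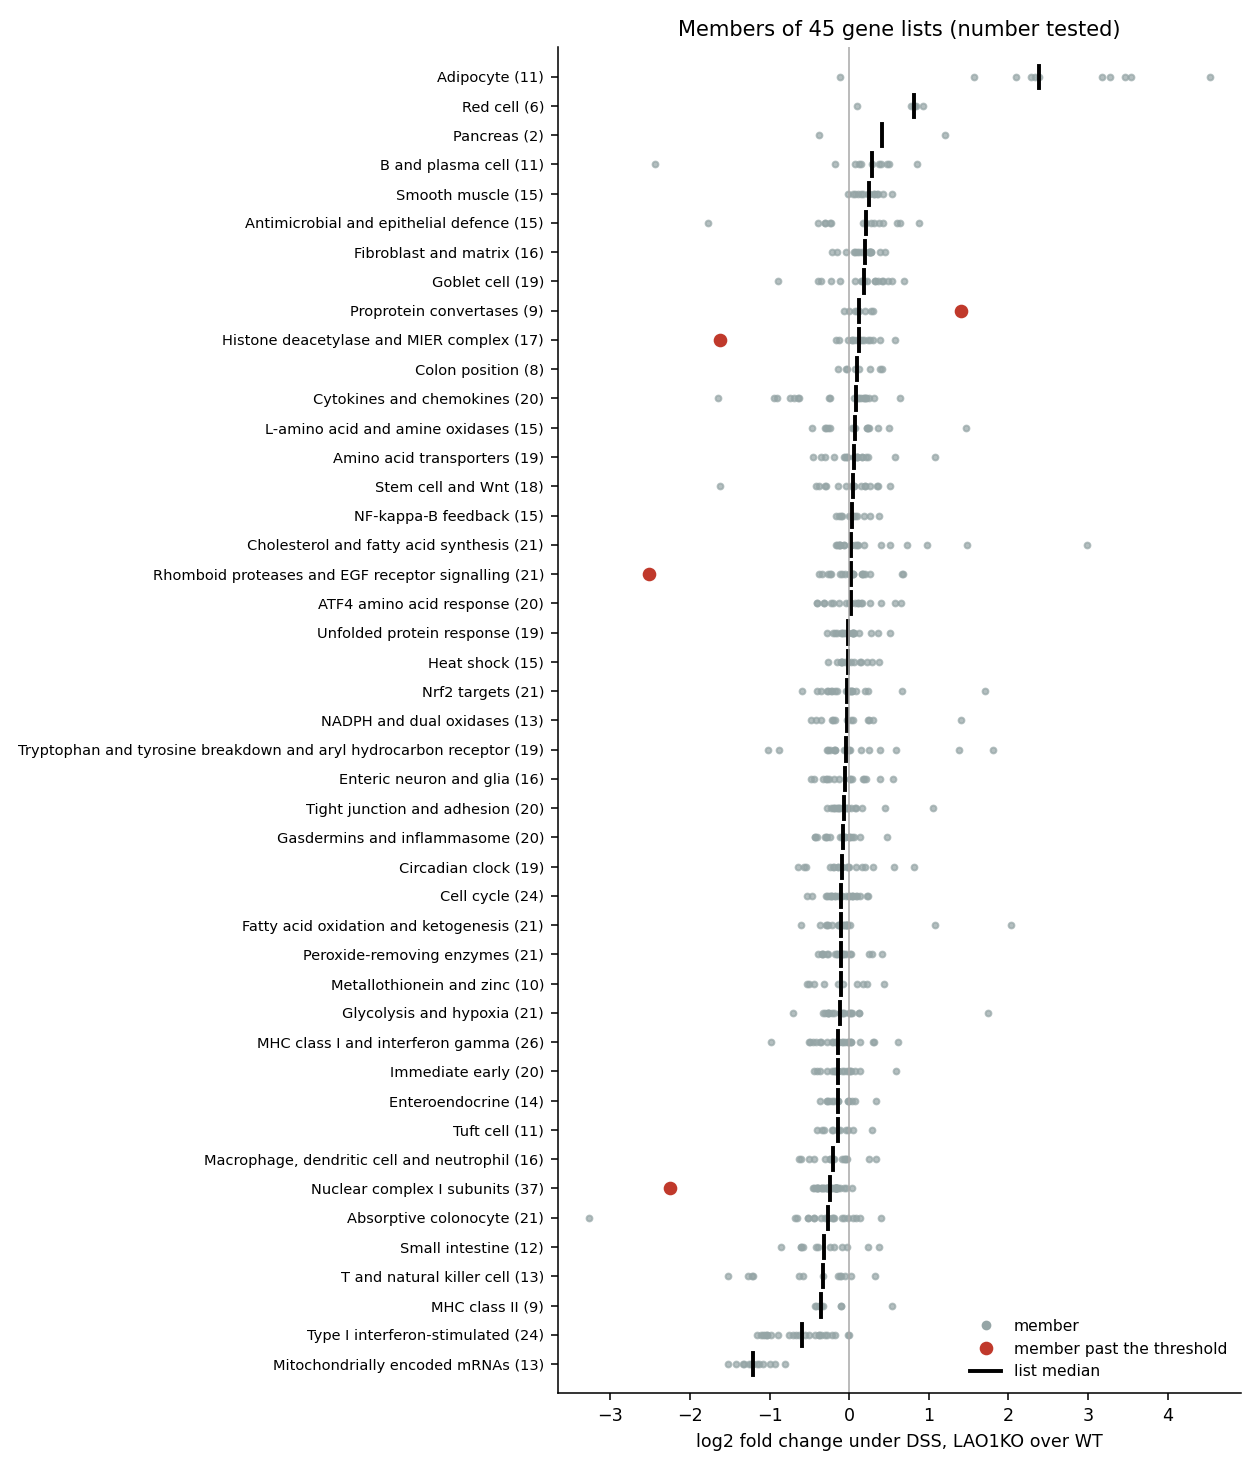
Log2 fold change under DSS, LAO1KO over WT (horizontal axis), of the tested members of each of 45 gene lists (rows, with the number tested). Grey dots are members, red dots the 4 members past the threshold, and black bars list medians, which run from -1.21 for the mitochondrially encoded mRNAs to 2.39 for adipocyte genes while most lie close to 0.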

How the data were processed

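Polyadenylated RNA of whole colon was made into stranded paired-end libraries, per the labels' protocols. The authors deposited 1 table of raw counts per gene symbol, 45777 genes by 18 libraries. The builds GRCm38 and mm10 are recorded, with HISAT2 2.1.0, StringTie 2.1.3b and Trimmomatic 0.38, per the submitters' processing notes, which give these tools no order or settings. How multiply mapped reads and strand were counted is not given in the sources used here, so near-identical copies and overlapping genes are uncertain.

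Counts were analysed in R 4.3.3 with edgeR 4.0.16 (filterByExpr, TMM, robust quasi-likelihood fit of 6 group means to all 18 libraries, Benjamini-Hochberg adjustment, threshold 0.05). CPM divides counts by the TMM-scaled library size, so mitochondrial sums can be large, and values are mean ± SD. Alternatives were RLE scaling, other filters on low counts, DESeq2 1.42.0, limma 3.58.1 voom with library weights, removal of mitochondrial mRNAs, the replicate letter as a block, the libraries of 1 treatment only and leaving out each library. On simulated counts for this comparison with 18602 genes tested, 18, 66, 90 and 100% of genes changed by 1.5, 2, 4 and 8-fold were recovered, and 5.52% of calls were false. The 200 changed genes were drawn from those with a mean above 1 CPM, and no other difference in composition between libraries was simulated. These rates therefore do not describe all tested genes of the real libraries. Within WT on DSS and within LAO1KO on DSS, the counts of any 2 libraries differed by more than sampling noise.

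Named were Lao1, Il4i1, every gene past the threshold with a proper symbol, list members that passed and up to 4 others per list with the smallest p, and genes past the threshold within 10 Mb of Lao1. Pseudogenes and gene models outside this rule were named after their values were seen, as were list members given for their role. The comparison, its lists and the naming rule were chosen with earlier results of these data known. Positions are RefSeq GRCm38.p6, matched by symbol for 18340 of 18848 tested genes. Copies of Ndufs5 and Rps2 were found with BLAST 2.17.0 in GENCODE M21.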

Additional observations from a re-analysis of the deposited data

Results flagged for a closer look

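For 8 of 195 named genes the 2 genotypes did not overlap under DSS nor under water and lay in opposite order in the 2 conditions. Over all tested genes this was so for 402 of 18848 (2.13%), and many of the named genes were chosen for a small p under DSS. The values are the log2 difference under DSS minus that under water. None passed edgeR's interaction test, with adjusted p from 0.126 to 0.161. Cldn8 had the largest positive value, 1.58 ± 0.28 (SE): it stood at 46.8 ± 3.52 CPM in WT and 32.4 ± 1.87 CPM in LAO1KO on water, and at 10.1 ± 2.35 and 21.0 ± 6.12 CPM on DSS (SD, n = 3). Mta3, a subunit of the NuRD repressor complex, was at 0.50.

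The other 6 were higher in LAO1KO on water and lower on DSS. The mitochondrial mRNAs COX2, CYTB and ATP6 were at -2.05, -2.01 and -1.77. The nuclear complex I subunit Ndufa1 was at -0.95, B2m at -0.90 and the ferritin heavy chain Fth1 at -0.83. The share of mitochondrial mRNAs in the libraries moved the same way, from 7.87% in WT and 12.2% in LAO1KO on water to 32.7 and 19.2% on DSS, and its part in the nuclear genes' values was not tested.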

How the results depend on the processing

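Direction held for the fold changes of all 16 genes in every alternative run, and 192 of 224 such values stayed past the threshold. The 16 DSS calls became 51 with DESeq2 and 967 with limma voom, and 9 to 16 with 1 library left out. In all 6 of those fits 8 genes passed (Ndufs5-ps, Pcsk5, Rhbdl2, Itpkb, Ndufs5, Mier3, Rps2-ps13 and Rps2-ps10). The 10 water calls became 284 with DESeq2, 933 with limma voom, 4 with the 6 water libraries alone, and 5 to 105 with 1 library left out, the 105 without WT replicate C, 17 without WT replicate B, 6 without LAO1KO replicate B and 5 without WT replicate A or LAO1KO replicate C. The count of 0 for the interaction became 2 with no filter on low counts, 448 with DESeq2, 2324 with limma voom and 0 to 47 with 1 library left out, the 47 when WT replicate C on water was left out, 10 without WT DSS replicate B, 3 and 2 without LAO1KO water replicates A and B, and 1 without LAO1KO DSS replicate B. With the replicate letter as a block 17 genes passed under DSS, 10 under water and 1, Itpkb, in the interaction (adjusted p = 0.00244). Same-lettered WT and LAO1KO libraries on DSS did not deviate together (correlations -0.0655, -0.0432 and 0.0947), so the letters are not taken to pair animals in this comparison. The water and DKO libraries were not examined in this way. List medians moved by more than their spread in 43 of 629 values. The causes were not tested. At the depth of 26.003 to 34.4 M counts, Lao1 lay at the limit of detection. In simulated counts 18% of 1.5-fold changes were recovered among genes with a mean above 1 CPM.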

Other observations

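Several genes lay just outside the threshold under DSS. Rnps1, a splicing factor of the exon junction complex, stood at 35.1 ± 0.928 CPM in WT and 57.8 ± 5.003 CPM in LAO1KO (SD, n = 3; 0.72 ± 0.14, SE; edgeR adjusted p = 0.0655). Pisd-ps1, a pseudogene of the phosphatidylserine decarboxylase gene, stood at 91.8 ± 12.1 and 160 ± 36.4 CPM (0.80; 0.0520) and passed under water (0.92; 0.0276). Gm11249, a further Rps2 copy on chromosome 4, stood at 3.07 ± 0.135 and 0.448 ± 0.140 CPM (-2.78; 0.0508). These genes were chosen after their values were seen.

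Of the 5 genes that passed under water and not under DSS, Iars, the isoleucyl-tRNA synthetase, stood on water at 49.7 ± 7.10 CPM in WT and 30.5 ± 0.907 CPM in LAO1KO (-0.70 ± 0.12; edgeR adjusted p = 0.0477), and its difference under DSS was -0.05 (0.961).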
